A study of Mus musculus with 6 samples.

Results

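Fibronectin and 7 matricellular proteins were followed in 393P cells, a mouse lung cancer cell line, with and without forced expression of Zeb1, a zinc-finger repressor of epithelial genes. The genes taken were Fn1, Tnc, Thbs1, Thbs2, Sparc, Spp1, Postn and Tgfbi, and a probe set was a member if the platform annotation named one of them alone. This gave 17 of the 45101 probe sets in the table, from 7 of the 8 genes. No probe set was named Spp1 in the annotation used here, so osteopontin was not analysed.

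The 3 Zeb1 vector arrays came from cultures of 393P cells that had been transfected to express Zeb1 stably and constitutively. The 3 control vector arrays came from 393P cells that carried the pcDNA vector without Zeb1. Both kinds of culture were grown in RPMI with fetal bovine serum, and biotin-labelled cRNA made from total RNA was hybridised to Affymetrix arrays. The sources used here do not say whether a group is 1 clone, a pool or several transfections, so p-values measure the spread between cultures only, which may be technical.

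Fibronectin is a large secreted glycoprotein that cells assemble into fibrils through integrins, and it carries binding sites for collagen, heparin and cells. Matricellular proteins are secreted into the matrix as well, but they act there mainly on cell adhesion, growth factor activity and matrix assembly rather than as structural fibres. They include tenascin-C, the thrombospondins, Sparc, osteopontin, periostin and Tgfbi, and several are known as genes that are raised when epithelial cells take on mesenchymal traits.

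Values are log2 MAS5 signals on arrays already scaled to 1 common mean. Signals under the pooled 25th percentile (log2 4.45) were raised to that floor, and only probe sets that were as bright as the array's own median, or brighter, on 3 or more of the 6 arrays were fitted. Arrays correlated at r = 0.979 to 0.984 within groups and 0.867 to 0.873 between them, across tested probe sets, which are not independent. The transfected gene checked the labels: on 1418926_at Zeb1 averaged 9.69 ± 0.096 on Zeb1 vector arrays and 4.47 ± 0.034 on control vector arrays (SD, n = 3 each). There 2 of 3 control vector arrays lay at the floor, which narrows that SD. Zeb1 rose by 1.17 on the log2 scale on 1443005_at, and its probe sets 1420243_at and 1446127_at were too dim to be tested. Cdh1, the epithelial cadherin, fell by 4.01 on the log2 scale. Of 9 epithelial markers 7 fell, where 23.5% of all 11893 tested genes fell. Esrp1 lay at the floor on all 3 Zeb1 vector arrays. Cldn4, Cldn7 and Esrp1 passed the filter on the 3 control vector arrays alone, so they had to be lower in Zeb1 vector cells. Krt8 fell by only 0.16, and Krt18 and Krt19 were not called (log2 changes of 0.03 and -0.04). The summed linear signal of the 9 markers was 57700 to 61900 in Zeb1 vector cells, against 130000 to 136000 in control vector cells. Among 7 lung epithelial markers 4 were tested. Of these Foxa2 rose, by 1.35 on the log2 scale, and Sftpc, Sftpb and Sftpa1 were not called. Nkx2-1 lay at the floor on 2 of 3 Zeb1 vector arrays and on 1 of 3 control vector arrays. The summed signal was 2000 to 2170 in Zeb1 vector cells, against 1060 to 1100 in control vector cells. Foxa2 was the brightest of these markers in both groups. Fibroblast markers were low in both groups: 1 of 8 was tested and 0 were called, Pdgfrb lay at the floor on all 6 arrays, and the summed signal was 392 to 511 in Zeb1 vector cells and 343 to 569 in control vector cells. Col3a1 and Col1a1, dim and not tested, were higher in Zeb1 vector cells without overlap (log2 changes of 1.36 and 0.57). The other fibroblast markers overlapped between groups. Of 5 endothelial markers 0 were called, with Pecam1 at the floor on all 6 arrays (sums of 322 to 465 and 326 to 461). Of 8 leukocyte markers 7 had a probe set, and the single one called was Cd14, which rose by 2.29 on the log2 scale. The leukocyte sum was 4950 to 5390 in Zeb1 vector cells, against 1410 to 1620 in control vector cells, while Ptprc, which defines leukocytes, was dim, at 5.23, the floor and the floor in Zeb1 vector cells and at 5.43, 4.63 and 4.95 in control vector cells. The part of these markers in the members' changes was not tested.

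Fibronectin, tenascin-C, thrombospondin-1, Sparc and Tgfbi RNA was higher in Zeb1 vector cells than in control vector cells. On the probe sets that stood for the genes, the rise ran from 1.5-fold for Thbs1 to 11.2-fold for Tgfbi. The other tested Tgfbi probe sets gave smaller rises, of 4.15-fold and of 2.87-fold. Thrombospondin-2 and periostin gave low signals in both groups. Of the 17 member probe sets 11 were tested, 10 of these rose, 0 fell and 1 was not called, where 24.5% of all 20594 tested probe sets rose and 46.1% were called in either direction (limma, Benjamini-Hochberg adjusted p under 0.05). The groups did not overlap in 10 of the 11, against 55.4% of all tested probe sets. Tgfbi 1448123_s_at, among the 10, passed the filter on the 3 Zeb1 vector arrays alone, so it had to be higher there. The median log2 change was 1.14 over the 11 and 0.02 over all tested probe sets. The other 6 were not tested because they were too dim, so these counts leave out the low members. Where only probe sets at or above the median on all 6 arrays were fitted, 9 member probe sets remained and 8 rose.

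**Figure D1:**
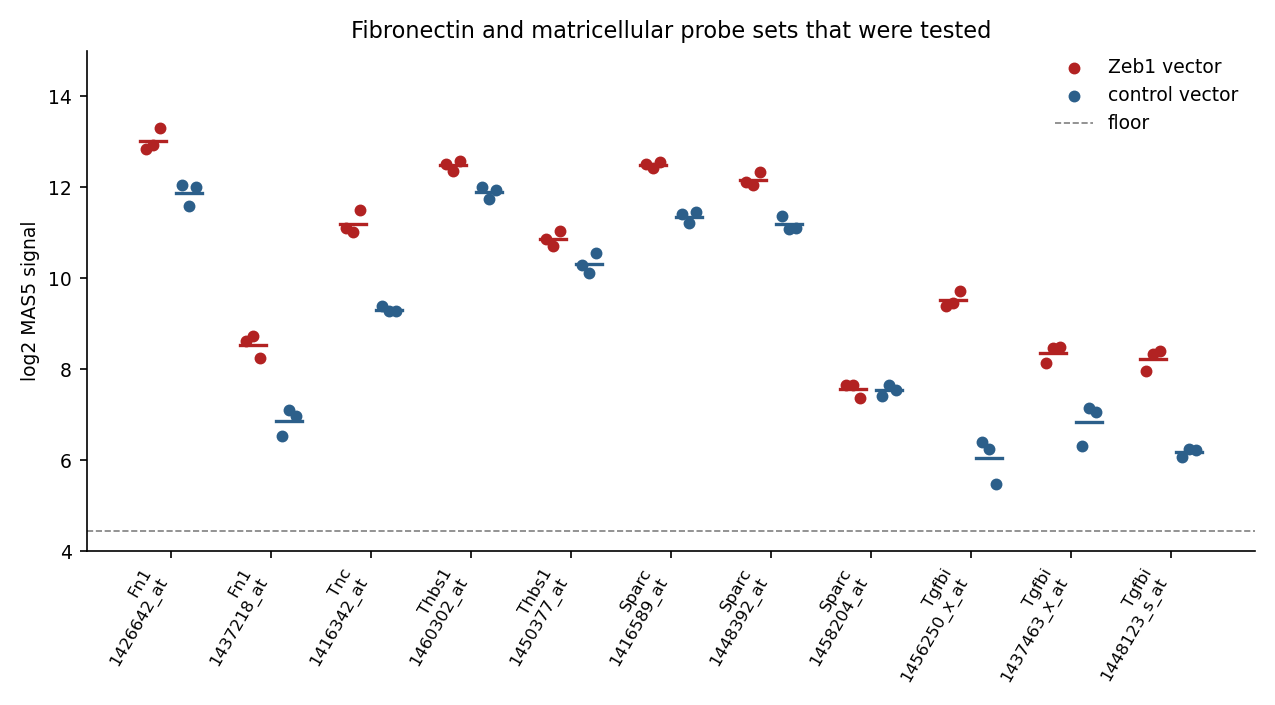
Log2 MAS5 signal of each tested member probe set on the 3 Zeb1 vector arrays (red) and the 3 control vector arrays (blue), with horizontal bars at the group means and a dashed line at the floor of 4.45. The groups stand apart in 10 of the 11 probe sets and overlap in Sparc 1458204_at.

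Fibronectin was read by a pair of probe sets, and both rose. On 1426642_at, which stood for the gene as the one with the highest mean signal, Fn1 had log2 signals of 12.84, 12.93 and 13.30 in Zeb1 vector cells, against 12.06, 11.59 and 12.00 in control vector cells. Every Zeb1 vector array was above every control vector array, and the fold change was 2.21 (log2 change 1.14, SE 0.142, adjusted p = 0.00013). On 1437218_at the log2 signals of Fn1 were 8.62, 8.73 and 8.25 in Zeb1 vector cells, against 6.54, 7.09 and 6.96 in control vector cells. The groups again did not overlap, and the fold change was 3.18 (log2 change 1.67, SE 0.201, adjusted p = 0.000105). The log2 changes of the 2 probe sets differed by -0.53 (1426642_at minus 1437218_at), and the per-array difference between them overlapped between groups (two-sided exact permutation p = 0.3, n = 3 each). Which fibronectin isoforms or parts of the transcript each probe set reads is not known here.

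Tenascin-C is a hexameric glycoprotein of wound and tumour matrix that modulates adhesion to fibronectin. On 1416342_at Tnc had log2 signals of 11.10, 11.01 and 11.49 in Zeb1 vector cells, against 9.39, 9.27 and 9.27 in control vector cells. The control vector arrays lay within a narrow band and all 3 Zeb1 vector arrays were above it, a fold change of 3.71 (log2 change 1.89, SE 0.124, adjusted p = 1.78e-06). On its other probe set, 1456344_at, Tnc was dim: the log2 signals were 5.87, 6.54 and 4.73 in Zeb1 vector cells, while all 3 control vector arrays were under the floor. That probe set did not pass the filter. Its mean was at least 2.40-fold higher in Zeb1 vector cells against the floor, and with no filter its adjusted p was 0.15.

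The thrombospondins are calcium-binding multimeric glycoproteins, and thrombospondin-1 is known as an inhibitor of angiogenesis that can activate latent TGF-beta. Thbs1 had on 1460302_at log2 signals of 12.51, 12.35 and 12.58 in Zeb1 vector cells, against 12.01, 11.75 and 11.94 in control vector cells. The groups were separate but close, with a fold change of 1.5 (log2 change 0.59, SE 0.0862, adjusted p = 0.000378). On 1450377_at the signals were 10.86, 10.72 and 11.03 in Zeb1 vector cells, against 10.30, 10.11 and 10.55 in control vector cells (1.47-fold, SE of the log2 change 0.122, adjusted p = 0.00453). This rise lost its call when no filter was applied (adjusted p = 0.0533). Rises at least as large as that on 1460302_at were seen in 17.6% of all tested probe sets, and changes of that size in either direction in 31.5%. The rise of Thbs1 was thus of a common size.

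Thrombospondin-2, a close relative that lacks the sequence by which thrombospondin-1 activates TGF-beta, was dim on its 3 probe sets, and none was tested. On 1450663_at Thbs2 had log2 signals of 5.57, 5.99 and 4.64 in Zeb1 vector cells, against 5.61, 5.94 and 6.89 in control vector cells, and the groups overlapped. On 1422571_at the signals were 4.84, the floor and 5.08 in Zeb1 vector cells, against 5.35, 5.15 and 5.48 in control vector cells, without overlap. The third probe set, 1447862_x_at, stayed between the floor and 5.01 on all 6 arrays. With no filter the 3 adjusted p-values were 0.43, 0.128 and 0.511, with log2 changes of -0.74, -0.54 and -0.19. No Thbs2 probe set had a higher mean in Zeb1 vector cells, none was called, and the signals were too dim to say more.

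Sparc, a collagen-binding protein also called osteonectin, had 3 probe sets, and a pair of them rose by like amounts. On 1416589_at its log2 signals were 12.50, 12.43 and 12.56 in Zeb1 vector cells, against 11.40, 11.21 and 11.45 in control vector cells. The replicates lay close together and the groups well apart, with a fold change of 2.20 (log2 change 1.14, SE 0.0768, adjusted p = 2.1e-06). On 1448392_at Sparc had 12.11, 12.05 and 12.34 in Zeb1 vector cells, against 11.37, 11.08 and 11.10 in control vector cells (1.98-fold, SE of the log2 change 0.102, adjusted p = 3.88e-05). Sparc 1458204_at behaved otherwise. Its log2 signals were 7.64, 7.66 and 7.38 in Zeb1 vector cells, against 7.42, 7.65 and 7.54 in control vector cells, and they overlapped. The log2 change there was 0.03 (95% interval -0.344 to 0.396, adjusted p = 0.916), and its sign turned under 4 alternatives. The interval does not reach the change of either other Sparc probe set. The log2 change on 1416589_at exceeded that on 1458204_at by 1.11, with no overlap of the per-array differences between groups (exact permutation p = 0.1, the smallest that 3 against 3 allow).

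Periostin and Tgfbi are related secreted proteins built on fasciclin domains that bind integrins. The single Postn probe set, 1423606_at, was under the floor on all 3 Zeb1 vector arrays, while the control vector arrays were at 5.09, 4.60 and the floor. It was not tested, and with no filter its adjusted p was 0.418. Periostin, commonly a product of fibroblasts, thus gave no signal clear of the floor in Zeb1 vector cells.

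Tgfbi, a protein first found as a gene induced by TGF-beta, rose on each of its 3 tested probe sets. On 1456250_x_at its log2 signals were 9.38, 9.45 and 9.73 in Zeb1 vector cells, against 6.40, 6.24 and 5.48 in control vector cells. The groups were widely apart, 11.2-fold (log2 change 3.48, SE 0.239, adjusted p = 2.43e-06). The control vector mean of 6.04 lay under the pooled 50th percentile (6.32). With the floor raised to that percentile the log2 change was 3.17. On 1448123_s_at the signals were 7.97, 8.33 and 8.40 in Zeb1 vector cells, against 6.06, 6.25 and 6.23 in control vector cells (4.15-fold, log2 change 2.05, SE 0.191, adjusted p = 1.88e-05). On 1437463_x_at they were 8.13, 8.46 and 8.49 in Zeb1 vector cells, against 6.32, 7.14 and 7.05 in control vector cells (2.87-fold, log2 change 1.52, SE 0.235, adjusted p = 0.000511). Of these, 1448123_s_at passed the filter on the 3 Zeb1 vector arrays alone. The probe sets thus shared a direction but not a size. The log2 change on 1456250_x_at exceeded that on 1437463_x_at by 1.96 and that on 1448123_s_at by 1.43, without overlap of the per-array differences (exact permutation p = 0.1 each, the smallest possible, and 0.16 adjusted over the 8 pairs of probe sets of 1 gene). Probe sets with the suffix _x_at hold probes that can match other transcripts as well, and what they add here was not tested. The fourth Tgfbi probe set, 1415871_at, failed the filter, with 6.17, 5.10 and 5.93 in Zeb1 vector cells and the floor on all 3 control vector arrays. It was at least 2.44-fold higher against the floor (adjusted p = 0.0394 with no filter).

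**Figure D2:**
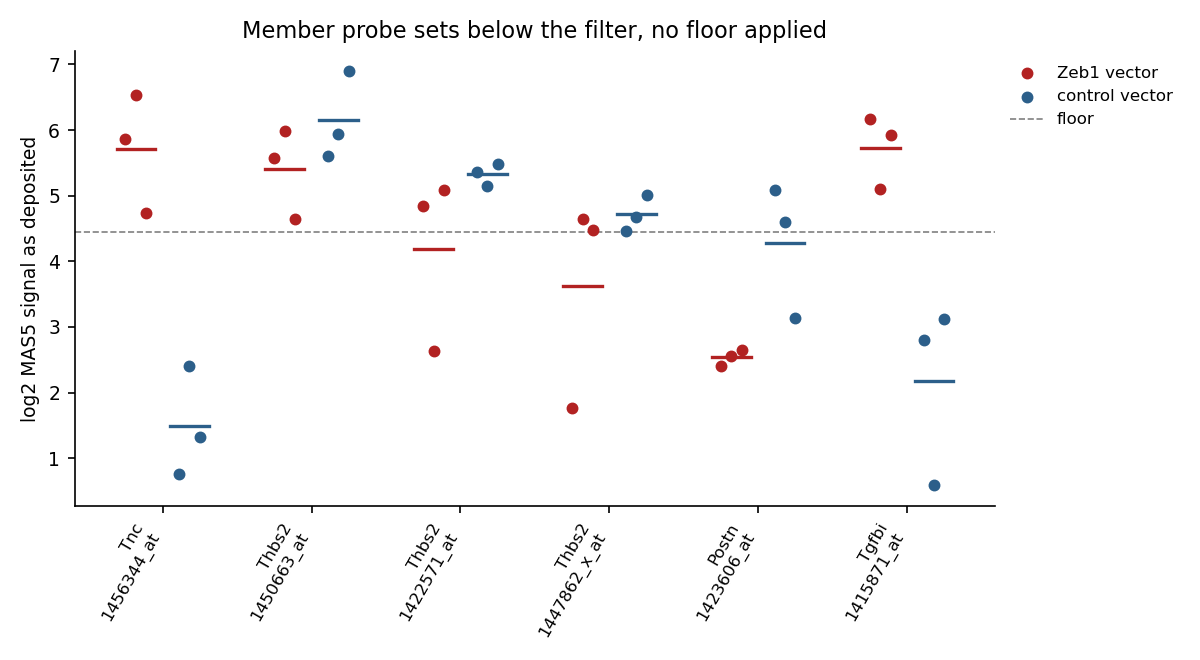
Deposited log2 MAS5 signals, before any floor, of the 6 member probe sets that were not tested, on the 3 Zeb1 vector arrays (red) and the 3 control vector arrays (blue), with bars at group means. Tnc 1456344_at and Tgfbi 1415871_at are above the dashed floor of 4.45 on the Zeb1 vector arrays alone, Thbs2 reaches at most 6.89 and overlaps or nearly overlaps between groups, and Postn is under it on all Zeb1 vector arrays.

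Set against each other on the probe sets that stood for the genes, the log2 changes ran from Tgfbi (3.48) through Tnc (1.89), Fn1 (1.14) and Sparc (1.14) to Thbs1 (0.59). The order holds for these probe sets only, since Tgfbi rose by 1.52 on 1437463_x_at and Fn1 by 1.67 on 1437218_at. The pairs of genes were compared on the same probe sets alone. Of the 10 pairs of genes 9 had per-array differences that did not overlap between groups, each with an exact permutation p of 0.1, the smallest possible, and 0.111 adjusted over the 10 pairs. The exception was Fn1 and Sparc. The log2 signal of Fn1 minus that of Sparc ran from 0.34 to 0.74 in Zeb1 vector cells and from 0.37 to 0.65 in control vector cells. On these probe sets the changes of Fn1 and Sparc could not be told apart. The 10 pairs draw on the same 5 genes, so they are not independent. How often pairs of other genes separate in this way was not counted. Taken singly, 55.4% of all tested probe sets did not overlap between groups. The count of 9 is thus a description and does not set the members apart from other genes. Rises at least as large as that of Tgfbi on 1456250_x_at were seen in 0.782% of tested probe sets, that of Tnc in 3.44% and those of Fn1 and Sparc in 7.66% each.

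**Figure D3:**
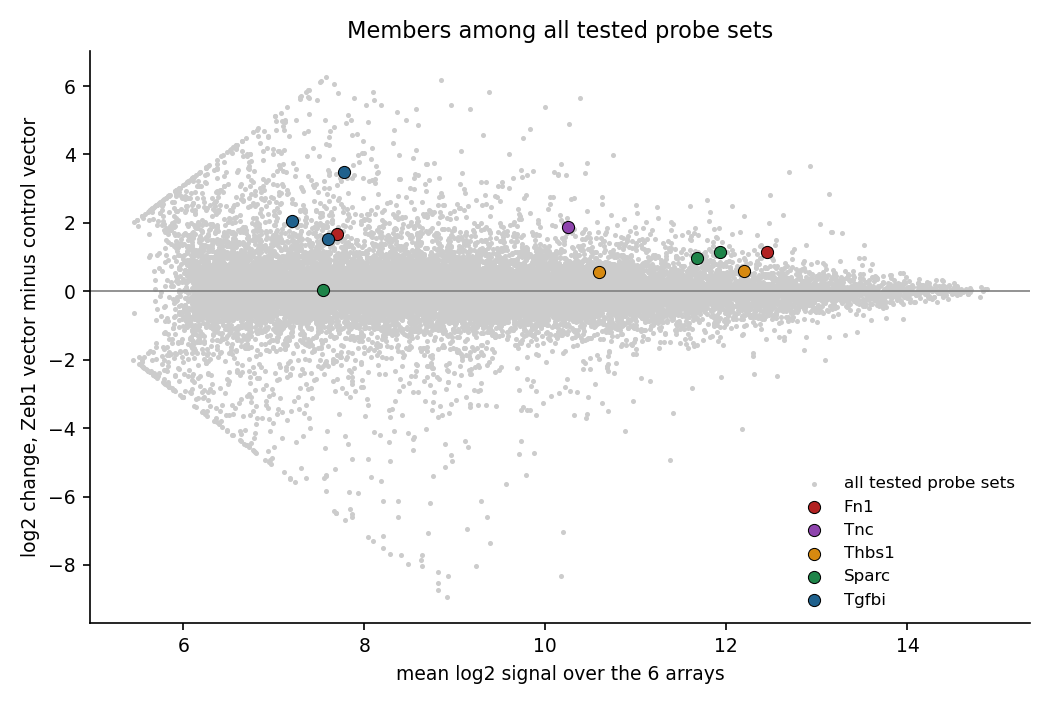
Log2 change (Zeb1 vector minus control vector) against mean log2 signal over the 6 arrays for all 20594 tested probe sets (grey) and the 11 tested member probe sets (coloured by gene). Tgfbi 1456250_x_at lies highest of the members at 3.48, and the 3 Sparc points include one near 0.

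**Figure D4:**
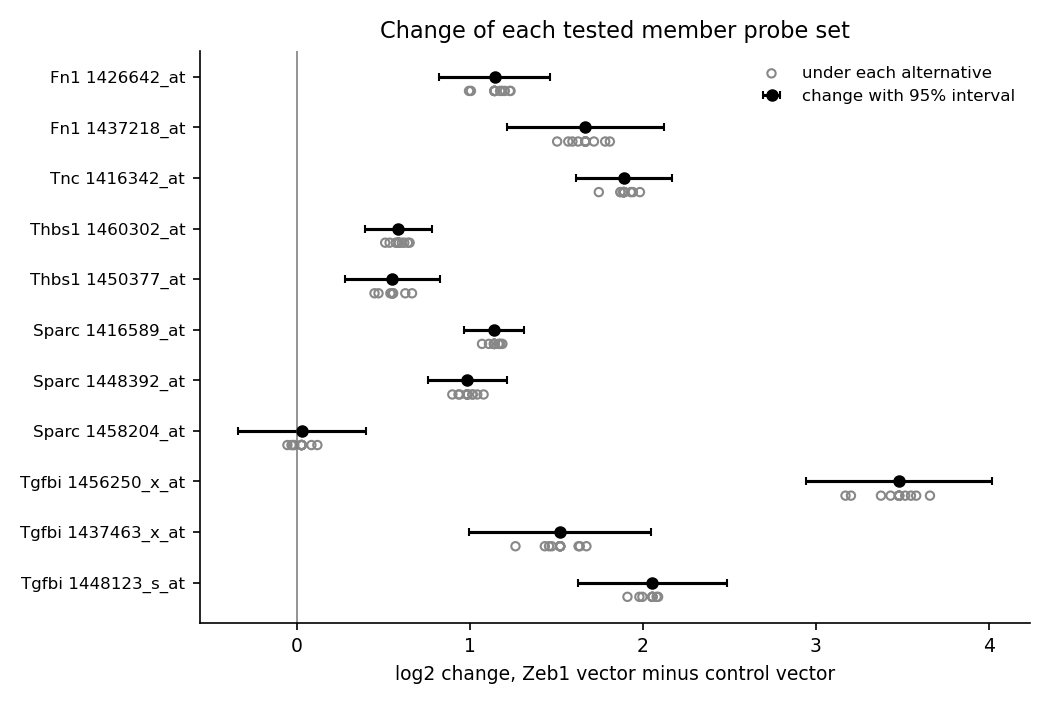
Log2 change of each tested member probe set with its 95% interval (black), and below each the log2 changes under the alternatives in processing (open circles). Sparc 1458204_at is the single interval that includes 0, and the other 10 stayed above 0 under every alternative drawn.

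Promoter sequence was at hand for a subset of the members, and the windows of the 3 genes that rose and have one are shown so that their bases can be set beside their changes. The windows are from RefSeq on GRCm38.p6 and run from 250 bases before a gene's start to 50 bases from it on, 5′ to 3′ on the gene's strand. For Tnc, which has 2 windows, that of the outermost start is shown. Capitals mark CAGGTG or its other strand CACCTG, an E-box that Zeb1 is known to bind, and TGANTCA, the AP-1 site, of which there was no match. The Tgfbi window is chr13:56609336-56609635 on the plus strand, the Tnc window chr4:64046966-64047265 on the minus strand and the Sparc window chr11:55420031-55420330 on the minus strand.
Tgfbi: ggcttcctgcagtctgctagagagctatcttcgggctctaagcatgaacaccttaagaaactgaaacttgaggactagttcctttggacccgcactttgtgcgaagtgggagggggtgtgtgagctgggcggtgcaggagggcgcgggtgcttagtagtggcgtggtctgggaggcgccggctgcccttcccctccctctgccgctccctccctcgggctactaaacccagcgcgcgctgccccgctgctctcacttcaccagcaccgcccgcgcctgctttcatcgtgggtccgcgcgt
Tnc: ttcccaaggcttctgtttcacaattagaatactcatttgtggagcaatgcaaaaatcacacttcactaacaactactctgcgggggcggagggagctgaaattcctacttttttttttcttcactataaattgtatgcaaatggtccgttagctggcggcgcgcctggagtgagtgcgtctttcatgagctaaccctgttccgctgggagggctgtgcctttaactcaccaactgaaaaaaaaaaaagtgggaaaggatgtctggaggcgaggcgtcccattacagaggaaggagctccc
Sparc: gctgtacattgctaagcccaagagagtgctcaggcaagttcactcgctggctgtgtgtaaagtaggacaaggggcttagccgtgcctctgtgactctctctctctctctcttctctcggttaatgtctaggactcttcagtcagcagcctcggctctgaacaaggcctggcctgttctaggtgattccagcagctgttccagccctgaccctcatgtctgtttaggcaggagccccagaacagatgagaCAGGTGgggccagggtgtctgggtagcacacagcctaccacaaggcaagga
CAGGTG stood once in the Sparc window, with its first base at -1 from the start, and in none of the other 6 windows of Postn, Tgfbi, Thbs2 and Tnc. Over all 32851 windows 20.2% held CAGGTG on either strand, and 7.81% held TGANTCA. The Tgfbi window was 63.3% G and C with 22 CpG, the Tnc window 47.3% with 10 CpG, and the Sparc window 55.3% with 4 CpG, against medians of 52.7% and 7 CpG. A match is a description of letters and not a site, and no match says nothing of the factor.

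The wider matricellular families, listed without the members, divided. Of 35 such genes 15 were tested, of which 6 rose, 2 fell and 7 were not called, where 25.8% of all 11893 tested genes rose, 23.5% fell and 49.3% were called. Their median log2 change was 0.36, against 0.01 over all genes. Matn2, a matrix adaptor of the matrilin family, was 17.0-fold higher (adjusted p = 1.28e-07). Its signals were 9.11 ± 0.060 in Zeb1 vector cells and 5.02 ± 0.117 in control vector cells (SD, n = 3 each). Smoc2, a relative of Sparc, was at least 15.6-fold higher, with 1 control vector array at the floor (adjusted p = 3.68e-06). Ccn3 was 3.25-fold higher and Ecm1 2.37-fold higher. Raising the floor to the 50th percentile gave log2 changes of 2.78 in place of 4.09 for Matn2, 2.36 in place of 3.96 for Smoc2 and 0.88 in place of 1.70 for Ccn3. The pair that fell were the integrin-binding proteins Ccn1, by 0.55 (adjusted p = 0.000173), and Ccn2, by 0.26 (adjusted p = 0.0036). Of the other 3 Ccn1 probe sets 1 fell and the others were not called (log2 changes of -0.65 to 0.99). Matn2, Smoc2 and Ccn3 passed the filter on the 3 Zeb1 vector arrays alone, so they had to be higher there, and the count of 6 rises rests in part on the filter. Where the filter asked for all 6 arrays, 3 relatives rose and 2 fell. Without Zeb1 vector replicate 1 or 2, 11 relatives were tested, of which 2 rose and 2 fell. Without replicate 3, 12 were tested, of which 3 rose and 2 fell. The filter still asked for 3 arrays in these fits, so Matn2, Smoc2 and Ccn3 could not pass it. The loss of their calls was thus set by the filter. The remaining 20 genes, Thbs4, Tnr and Sparcl1 among them, were below the filter.

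Receptors for these proteins were called about as often as all genes. Of 28 receptor genes 20 were tested, with 7 that rose, 3 that fell and 10 not called, which is 50% called, against 49.3% of all tested genes (median log2 change 0.06). The integrin subunits Itgb1, Itgav, Itgb3 and Itga5 were among those not called. The subunit Itgb5 did rise, by 0.53 (adjusted p = 0.0071), as did its other 3 tested probe sets, by 1.09 to 1.66. Cd47 rose by 0.53 (adjusted p = 0.00165), and 2 of its other 3 tested probe sets were called higher. Itgb1, the common beta subunit, had a log2 change of -0.07 (95% interval -0.237 to 0.0964, adjusted p = 0.482). Itgav, its partner in vitronectin and fibronectin receptors, had 0.08 (-0.0658 to 0.23, adjusted p = 0.347), and Itgb3 had -0.20 (-0.729 to 0.325, adjusted p = 0.526). Itga5, the alpha subunit of the classical fibronectin receptor, was dim, at 6.43 ± 0.074 in Zeb1 vector cells and 6.38 ± 0.367 in control vector cells (log2 change 0.04, -0.554 to 0.635, adjusted p = 0.921), and its sign turned under quantile normalization.

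Of the receptors that rose, Cacna2d1, a calcium channel subunit that binds thrombospondins, was at least 31.9-fold higher (10.06 ± 0.046 in Zeb1 vector cells and 5.06 ± 0.547 in control vector cells, adjusted p = 3.06e-07). The heparan sulfate proteoglycan Sdc2 was at least 11.5-fold higher (adjusted p = 6.4e-05), Sdc3 1.91-fold, and the laminin receptor subunit Itga6 1.57-fold. Of the other 2 tested Sdc3 probe sets, with log2 changes of 0.01 and 1.03, 1 was called. Cd44, a receptor for hyaluronan and osteopontin, was 1.46-fold higher (14.23 ± 0.042 in Zeb1 vector cells and 13.68 ± 0.059 in control vector cells, adjusted p = 1.55e-05), and its other tested probe sets rose by 0.76 and 1.08 on the log2 scale. Those that fell were Itgb6, the syndecan Sdc1 and the endocytic receptor Lrp1. Itgb6, an epithelial subunit that pairs with Itgav to bind fibronectin and latent TGF-beta, fell 3.64-fold (adjusted p = 0.00109), Sdc1 2.26-fold and Lrp1 1.70-fold. Under the higher floor, at the 50th percentile, the log2 change was 3.73 in place of 4.99 for Cacna2d1, 2.48 in place of 3.53 for Sdc2 and -0.87 in place of -1.86 for Itgb6. Cacna2d1 passed the filter on the 3 Zeb1 vector arrays alone, and Itgb6 on the 3 control vector arrays alone.

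Matrix molecules that bind or crosslink the members moved in both directions. Of 29 genes 27 had a probe set named for them and 19 were tested, with 4 that rose, 8 that fell and 7 not called (median log2 change -0.19). That is 63.2% called, where 25.8% of all tested genes rose, 23.5% fell and 49.3% were called. Vcan, a proteoglycan that binds fibronectin and tenascins, was 25.7-fold higher, the fibril collagen chain Col5a1 5.99-fold and Fbln1, a fibronectin-binding protein, 4.77-fold. Of the other 2 tested Fbln1 probe sets, with log2 changes of 0.23 and 1.70, 1 was called. Pcolce, which enhances procollagen processing, was 1.14-fold higher (log2 change 0.19, adjusted p = 0.0448). That call did not hold without any 1 of the control vector replicates or without Zeb1 vector replicate 1 or 2 (adjusted p of 0.0531 to 0.183, the log2 change being 0.12 without Zeb1 vector replicate 2), with no filter (0.137) or with no intensity trend (0.161). Bgn was at least 123-fold lower and Loxl1, a lysyl oxidase, at least 3.46-fold lower, each with 1 Zeb1 vector array at the floor. Tgm2, the transglutaminase that crosslinks fibronectin, was 10.4-fold lower (8.07 ± 0.494 in Zeb1 vector cells and 11.44 ± 0.076 in control vector cells, adjusted p = 1.1e-06), and Fbln2 9.23-fold lower. Under the higher floor the log2 change was 3.39 in place of 4.69 for Vcan and -0.60 in place of -1.79 for Loxl1. Vcan passed the filter on the 3 Zeb1 vector arrays alone, and Loxl1 on the 3 control vector arrays alone.

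Among the proteins that couple fibronectin-bound integrins to actin, more fell than rose. Of 25 genes 21 had a probe set named for them, and all 21 were tested: 10 fell, 3 rose and 8 were not called, with a median log2 change of -0.21. That is 61.9% called, where 25.8% of all tested genes rose, 23.5% fell and 49.3% were called. Zyx, a focal adhesion protein that responds to force, was 2.37-fold lower (9.61 ± 0.110 in Zeb1 vector cells and 10.86 ± 0.103 in control vector cells, adjusted p = 4.54e-06), Parva 2.09-fold, its binding partner Ilk 1.82-fold, and talin, Tln1, 1.58-fold. Those that rose were the paxillin relative Tgfb1i1, by 1.59 on the log2 scale, Arhgef7 by 0.59 and Tns3 by 0.47. The other tested probe set was not called for Zyx (-0.69), Parva (-0.14), Tln1 (-0.34) or Tns3 (0.04).

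The TGF-beta pathway, a known inducer of Fn1, Tnc, Thbs1 and Tgfbi, had probe sets named for 24 of its 26 listed genes and 22 tested. Of these 15 rose, 5 fell and 2 were not called (90.9% called, median log2 change 0.45). Over all tested genes 25.8% rose, 23.5% fell and 49.3% were called. A like list was already known to rise in these data when this pathway list was drawn up, so its count is no independent evidence of direction. The ligand Tgfb1 was 2.14-fold higher (9.82 ± 0.093 in Zeb1 vector cells and 8.73 ± 0.128 in control vector cells, adjusted p = 3.01e-05), though its other tested probe set was not called (log2 change 0.54, adjusted p = 0.207). Ltbp1, which tethers latent TGF-beta to fibronectin matrix, was 2.68-fold higher. The co-receptor Tgfbr3 was at least 9.84-fold higher, the inhibitory Smad6 4.12-fold and the pseudoreceptor Bambi at least 3.08-fold (adjusted p = 0.0156). Bambi was not called with no filter (adjusted p = 0.126), and its log2 change of 1.62 was 1.01 without control vector replicate 3. Genes that fell were Ltbp2, by 1.91, the ubiquitin ligases Smurf1, by 0.81, and Smurf2, by 0.40, and the receptor Tgfbr2, by 0.63 (adjusted p = 0.000225). Smurf2 was not called with no filter (adjusted p = 0.0609). The higher floor gave 1.70 in place of 3.30 for Tgfbr3 and 0.97 for Bambi. Tgfbr3 and Smad6 passed the filter on the 3 Zeb1 vector arrays alone.

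**Figure D5:**
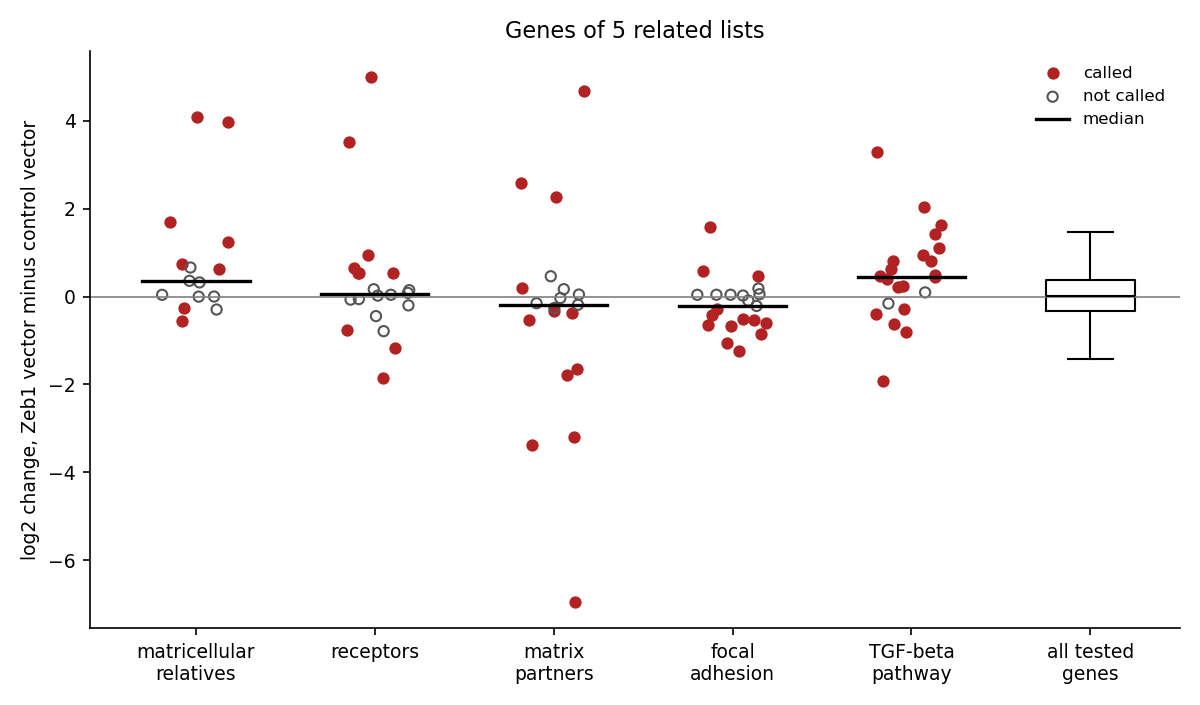
Log2 change (Zeb1 vector minus control vector) of each tested gene in 5 related lists, filled where called and open where not, with the list's median as a bar, beside a box plot of all 11893 tested genes (quartiles, whiskers to 1.5 times their range, outliers not drawn). The medians run from -0.21 for focal adhesion genes to 0.45 for the TGF-beta pathway.

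The genes with array profiles most like the members were found by the root mean square difference, over the 6 arrays, of the log2 signal minus its mean in control vector cells, among 11888 genes. For Fn1 they were Sox9 (0.076) and Pik3r1 (0.0887), for Tnc they were Zmynd8 (0.0711) and Gli3 (0.0953), and for Sparc they were Pold4 (0.0683) and Traf3ip1 (0.0771). Those nearest Thbs1 were Rad51d (0.0198) and Tor1aip1 (0.0413). Those nearest Tgfbi were Pcbp3 (0.157) and Igfbp7 (0.202), farther away than for the other members. The measure follows the size of the change between the groups and is given as a description.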

How the data were processed

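RNA of 3 Zeb1 vector and 3 control vector cultures was measured on Affymetrix arrays. The authors deposited log2 values of MAS5 signals for 45101 probe sets, MAS5 being named in the submitters' processing notes with no version. Out of log2, 100% of values were multiples of 0.1 (tolerance 0.01 multiples) and the mean with 2% trimmed from each end came to 500 for every array, which marks a scaling done before deposit. The 2 missing values, on control vector replicate 2, were set to the floor.

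Control probe sets (64), those with several symbols (932) and those with none here (9160) were left out, which left 34945. Of these 34741 had their Entrez ID in the RefSeq table of GRCm38.p6, and 0 symbols changed. After the floor and filter, 20594 probe sets were fitted with limma 3.58.1 in R 4.3.3 (lmFit, eBayes with an intensity trend) and adjusted by Benjamini-Hochberg. SE is limma's moderated standard error, with a median of 0.147. A gene in a list stands as its tested probe set with the highest mean. A fold is written as at least N-fold if an array lay at the floor. Other folds are estimates, and those with the lower group mean under the pooled 50th percentile depend on where the floor is set. Precision is limited by the number of arrays.

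The members, lists, tests and alternatives were chosen with earlier results of these data known. Named are every member probe set, the 4 largest rises and falls called in each list, 8 fixed genes and the 2 nearest genes of each tested member. Itgb5 and Cd47 are given besides these and were not followed under the alternatives. Alternatives were the floor at the 50th percentile, no floor, no filter, a filter on all 6 arrays, quantile normalization, 1 probe set per gene, no trend, the replicate number as a block, and leaving out each array. Figures were drawn with matplotlib 3.10.9 in Python 3.11.15.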

Additional observations from a re-analysis of the deposited data

How the results depend on the processing

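Across the alternatives, 138 of 143 log2 changes of member probe sets kept their direction and their side of the threshold, as did 708 of 722 of the other 55 named probe sets. The exceptions among members were Thbs1 1450377_at with no filter, given in the report, and Sparc 1458204_at, never called, which changed sign under quantile normalization (-0.055) and without an array (-0.032 to 0.12 over the 6). Itga5 1423267_s_at, not called either, changed sign with the floor at the 50th percentile (-0.081), under quantile normalization (-0.043) and without control vector replicate 1 (-0.17, in a range of -0.17 to 0.15 over the 6 arrays). With 1 probe set per gene 6004 genes were called in place of 9493 probe sets, and 5 of 5 members in place of 10 of 11, because fewer features were fitted. With the filter on all 6 arrays 5 of 8 tested matricellular relatives were called in place of 8 of 15 (3 rose and 2 fell, in place of 6 and 2). Without an array the counts called were 7802 to 8867 for all probe sets, 9 to 10 for members, 4 to 9 for matricellular relatives, 9 to 10 for receptors, 9 to 12 for matrix partners, 12 to 13 for focal adhesion genes and 15 to 21 for the TGF-beta pathway. The replicate numbers did not pair the samples (correlations of deviations of 0.0173, 0.0138 and -0.039 for numbers 1, 2 and 3). With the replicate block 9377 probe sets and 10 member probe sets were called, and the named call lost was that of Pcolce (adjusted p = 0.0503). Zeb1 1443005_at lost its call with no filter (adjusted p = 0.0697). Tgfbi 1448123_s_at, Matn2, Smoc2 and Ccn3 failed the filter without any 1 Zeb1 vector array. Signals near the floor limit what can be said of Thbs2 and Postn and of 1 probe set each of Tnc and Tgfbi.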
